A study of Mus musculus with 24 samples.

Results

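Collagen genes were followed in the dorsal skin, taken whole, of mice fed within a fixed daily window. The members were all genes whose symbol names a collagen chain (Col, a number, a and a number), taken from the exon rows of the deposited count table. There were 43 such genes of 29758 gene symbols, and each had 1 row. Of the 43, 37 had enough reads to be tested, and the other 6 (Col2a1, Col10a1, Col25a1, Col9a1, Col9a2 and Col6a4) are described by level only.

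The skin came from male, wild type C57BL/6NCrl mice of about 8 weeks, labelled as having hair follicles at rest (telogen, by histology). Of the pools, 2 stood apart: markers of growing hair summed to 918 CPM in ED ZT24 and 2526 CPM in EN ZT0, against 13.7 to 65.4 CPM in the other 22, which goes against that label. CPM are counts scaled by library size. All mice lived under a day of 12 h light and 12 h dark, ate regular chow and had been on their schedule for 18 to 21 days. The ED group had food from ZT0 to ZT4, the MD group from ZT5 to ZT9 and the EN group from ZT12 to ZT16, where ZT counts hours since lights on. Each group gave 8 libraries, 1 at each of ZT0, 4, 8, 12, 16, 20, 24 and 28, and each library was made from RNA pooled from 2 to 4 animals. With 1 pool per group and time, every p-value measures the spread of 24 pools around a fitted daily curve. Freely fed mice are not analysed here, so the comparisons set the feeding times against each other.

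Collagens are trimeric proteins of the extracellular matrix. Fibrillar collagens, above all types I, III and V, are made by dermal fibroblasts and assemble into the fibres that give skin its strength. Basement membrane collagens form sheets under epithelia and around vessels, fat and muscle cells, network collagens form lattices around vessels and in cartilage, and transmembrane collagens anchor cells to the matrix. Other chains sit on the surface of fibrils (the FACIT class), form beaded filaments (type VI), link basement membranes to fibres (the multiplexins and the anchoring fibrils of type VII) or belong to none of these classes.

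Collagen reads made up 3.0% to 7.71% of all exon reads in a pool. Their share averaged 5.91 ± 0.909% in the ED pools, 4.03 ± 0.600% in the MD pools and 6.24 ± 1.15% in the EN pools (SD, n = 8 each). Total exon reads per pool ranged from 13091637 to 26052550. The highest MD share, 4.72%, lay above the lowest ED share, 4.53%, and above the lowest EN share, 4.26%, so the groups overlapped at their edges. Together the chains Col1a1, Col1a2 and Col3a1 took 82.6% to 91.2% of all collagen reads (median 88.9%).

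Levels were compared between genes on the scale of deposited RPKM (reads scaled by gene length and library size), which accounts for gene length. The most abundant were the chains of type I, Col1a1 (mean of 24 pools, 1809 RPKM) and Col1a2 (1536 RPKM), and that of type III, Col3a1 (1302 RPKM). The next was Col17a1 (291 RPKM), the transmembrane collagen of the hemidesmosomes that hold basal keratinocytes to the basement membrane. Col6a1 (137 RPKM), Col6a2 (135 RPKM), Col5a2 (116 RPKM), Col5a1 (98.2 RPKM) and Col4a1 (95.1 RPKM) followed. The 6 genes too low to be tested include Col2a1 and Col10a1, defining collagens of cartilage, and Col2a1 had at most 5 reads in a pool and none in 10 of the pools. The RPKM values share the same set of upper values in each library: Col1a1 stands at 1888 RPKM in all 8 ED and all 8 EN pools. For this reason RPKM served for the order of levels, and differences between groups were taken from the counts.

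**Figure D1:**
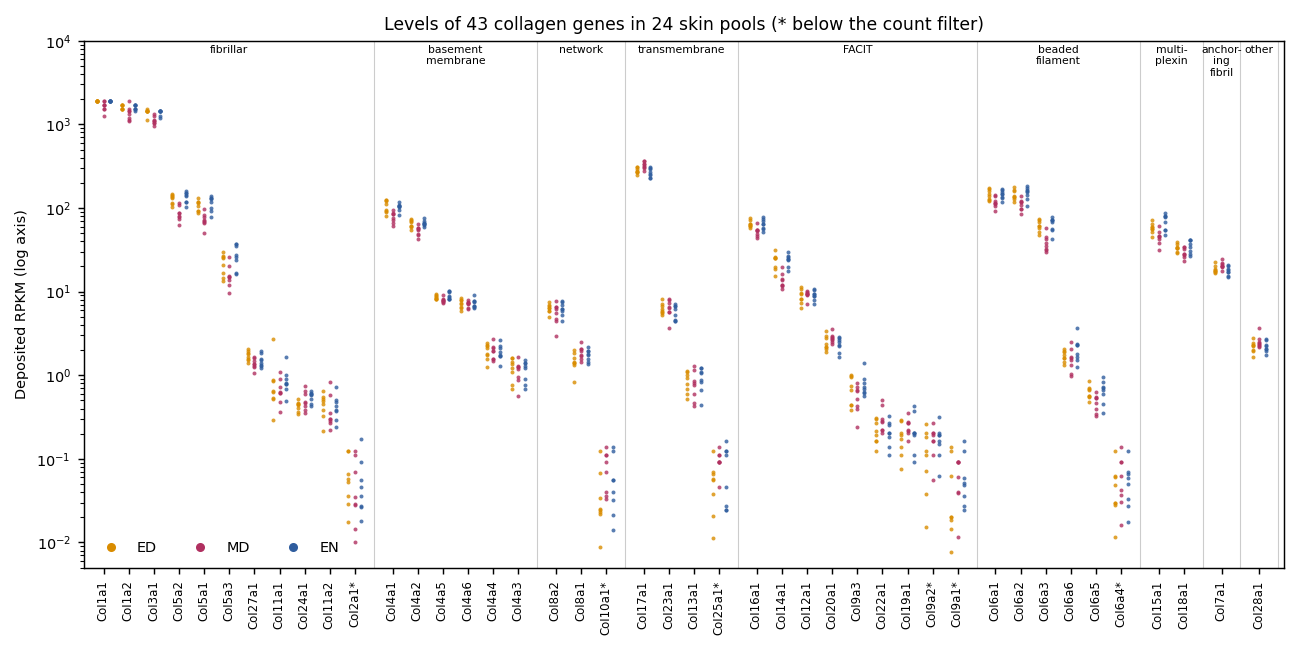
Deposited RPKM (log axis) of the 43 collagen genes, grouped by class, with 1 dot per pool and the ED, MD and EN pools side by side for each gene; an asterisk marks the 6 genes below the count filter. The chains Col1a1, Col1a2 and Col3a1 average over 1000 RPKM, and the genes below the filter stay under 1 RPKM.

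The stretches just upstream of 3 members are shown because their results are described at length. Col3a1 is a fibrillar chain that was lower in MD, Col5a3 is the member with a called rhythm, and Col7a1 was higher in MD. Each line holds 120 bases from RefSeq on build GRCm38.p6, 5′ to 3′ in the direction of the gene. The lines end just before the start of the RefSeq gene, which for Col5a3 lies 50 bases ahead of its start in the RefSeq promoter table. They lie at chr1:45311418-45311537 on the plus strand, chr9:20815118-20815237 on the minus strand and chr9:108953466-108953585 on the plus strand. Capitals mark the letters TATAAA at position -117 from the start in Col3a1, the letters CCAAT and, read on the opposite strand, GGGCGG in Col5a3, and GGGCGG again in Col7a1.
Col3a1: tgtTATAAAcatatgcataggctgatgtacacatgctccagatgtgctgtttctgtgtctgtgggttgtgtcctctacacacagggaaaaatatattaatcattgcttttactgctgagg
Col5a3: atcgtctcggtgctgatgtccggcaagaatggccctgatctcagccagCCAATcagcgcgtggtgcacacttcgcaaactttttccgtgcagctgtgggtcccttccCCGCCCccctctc
Col7a1: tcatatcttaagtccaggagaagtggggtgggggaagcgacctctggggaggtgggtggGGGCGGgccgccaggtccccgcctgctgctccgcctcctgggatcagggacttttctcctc

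Of the 43 members, 35 had an entry in the RefSeq promoter table, and the 250 bases before the start were searched on both strands for 4 motifs, none of which contains another. These 35 members had 38 windows. A member was counted if any of its windows matched, whereas the share of all is per window. GGGCGG, the core of sites bound by SP1, was in 21 of the 35 (60%), against 32.7% of all 32851 windows of that length in the table. CCAAT was in 13 (37.1%) and in 33.8% of all windows, and TATAAA in 5 (14.3%) and in 12.4% of all windows. CACGTG, the E-box form bound by CLOCK and BMAL1, was in 0 of the 35 members and in 6.02% of all windows. These are matches of letters and no measure of binding.

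The first question is whether the time of food went with a different mean collagen level over the day. ED was compared with MD, ED with EN and MD with EN, each by the mean of the fitted daily curve. In ED against MD, 11 of the 37 tested members differed, with 8 higher and 3 lower in ED. Among all 15719 genes tested, 23.0% differed, 11.8% higher and 11.2% lower in ED. In MD against EN, 15 of 37 differed, with 4 higher and 11 lower in MD, where 30.2% of all genes differed (14.4% higher and 15.9% lower in MD). Differences here and below are in mean log2 CPM (prior count 2), and calls are at an adjusted p under 0.05 in edgeR's quasi-likelihood F test with Benjamini-Hochberg adjustment over all genes. Both comparisons use the same MD pools. Without ED ZT24 and EN ZT0, the pools with growing-hair markers, 5 members were higher and 3 lower in ED than in MD (19.5% of all genes differed, 9.65% higher and 9.83% lower), with Col5a1, Col6a1 and Col6a3 no longer called. In MD against EN, 3 were then higher and 11 lower in MD (29.6% of all genes, 14.2% higher and 15.4% lower), with Col4a6 no longer called.

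No member differed between ED and EN in edgeR's quasi-likelihood test, and neither did any of the 15719 genes (0%). At an unadjusted p under 0.05 there were 1 of 37 members (Col5a3) and 961 of all genes, and DESeq2 called 0 members and 6 genes (0.0382%). The differences, ED minus EN, ran from -0.29 (Col5a3, standard error 0.141) to 0.25 (Col27a1, standard error 0.133), with a median of -0.02 over the members and 0.00 over all genes. For Col1a1 the difference was -0.10 ± 0.156 (standard error).

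The called members of the fibrillar class were all lower in MD. Of 10 tested fibrillar chains, 5 were higher in ED than in MD and 6 were lower in MD than in EN, and 0 went the opposite way. The class median was 0.24 for ED minus MD and -0.39 for MD minus EN, against 0.01 and 0.00 for all genes. The 4 chains that were called in neither comparison were all of low level: Col11a1 (0.817 RPKM) and Col11a2 (0.424 RPKM), best known from cartilage, and the minor fibrillar chains Col24a1 (0.498 RPKM) and Col27a1 (1.54 RPKM).

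Col1a1 encodes the chain that enters the type I trimer in pairs. It was at a lowest, median and highest 13473, 19009 and 26283 CPM in ED pools, 7906, 10076 and 14824 CPM in MD pools and 13158, 20878 and 28995 CPM in EN pools. The MD pools were lower than the pool of the same time in ED at 8 of 8 times and in EN at 8 of 8 times, and of the ED and EN pools only those of ZT4 reached into the MD range. Its highest EN pool was EN ZT0, as it was for Col1a2, Col3a1, Col5a1, Col5a2, Col6a1 and Col6a2. The difference was 0.80 ± 0.156 for ED minus MD (1.74-fold, standard error over 8 pools a group, adjusted p = 0.000908, edgeR) and -0.90 ± 0.156 for MD minus EN (0.535-fold, adjusted p = 0.000204). Without the pools ED ZT24 and EN ZT0 the log2 differences fitted by edgeR were 0.77 (adjusted p = 0.00197) and -0.85 (adjusted p = 0.00053). With all pools, edgeR's own fitted differences were 0.793 and -0.899.

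Col1a2, the partner chain, was at 12628, 17515 and 21512 CPM in ED pools, 9094, 12545 and 16301 CPM in MD pools and 12627, 18229 and 23291 CPM in EN pools (lowest, median and highest). Its difference was 0.50 ± 0.147 for ED minus MD (adjusted p = 0.0173) and -0.55 ± 0.147 for MD minus EN (adjusted p = 0.0061). The ranges overlapped, and MD was the lower at every matched time in both comparisons. The ratio of Col1a1 to Col1a2 reads was 0.998 to 1.24 in the ED pools, 0.561 to 1.04 in the MD pools and 0.993 to 1.29 in the EN pools, with a slight overlap. Its standard deviation over the 24 pools was 0.26 on the log2 scale, which is less than that of Col1a1 alone (0.52).

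Col3a1, which forms type III fibrils beside type I, was at 12662, 16388 and 19104 CPM in ED pools, 7577, 10192 and 13111 CPM in MD pools and 11877, 17697 and 21607 CPM in EN pools. It was lower in MD at 8 of 8 times in each comparison, with a slight overlap of the ranges. The difference was 0.65 ± 0.136 for ED minus MD (1.57-fold, adjusted p = 0.00179) and -0.69 ± 0.136 for MD minus EN (0.619-fold, adjusted p = 0.000676).

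Type V collagen starts fibrils and limits their width. Col5a2 was at 589, 724 and 830 CPM in ED pools, 402, 511 and 697 CPM in MD pools and 588, 765 and 889 CPM in EN pools. It was 0.43 ± 0.0945 higher in ED than in MD (adjusted p = 0.00196) and MD minus EN was -0.47 ± 0.0945 (adjusted p = 0.000647). Col5a2 lies 24625 bases from Col3a1 on chromosome 1, and the ratio of the neighbours varied with a standard deviation of 0.14 on the log2 scale over the 24 pools.

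Col5a1 was at 600, 747 and 971 CPM in ED pools, 424, 596 and 762 CPM in MD pools and 572, 853 and 1000 CPM in EN pools, with wide overlap. The difference was 0.32 ± 0.122 for ED minus MD (adjusted p = 0.0397) and -0.35 ± 0.122 for MD minus EN (adjusted p = 0.0188). Col5a3, the third and scarcest chain of type V, differed in mean level by the counts only in MD minus EN (-0.44 ± 0.141, adjusted p = 0.0106). Its difference for ED minus MD was 0.16 ± 0.141 (adjusted p = 0.328). On log2 RPKM limma called it in ED minus MD (0.35, adjusted p = 0.0215) and in MD minus EN (-0.65, adjusted p = 0.000268).

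**Figure D2:**
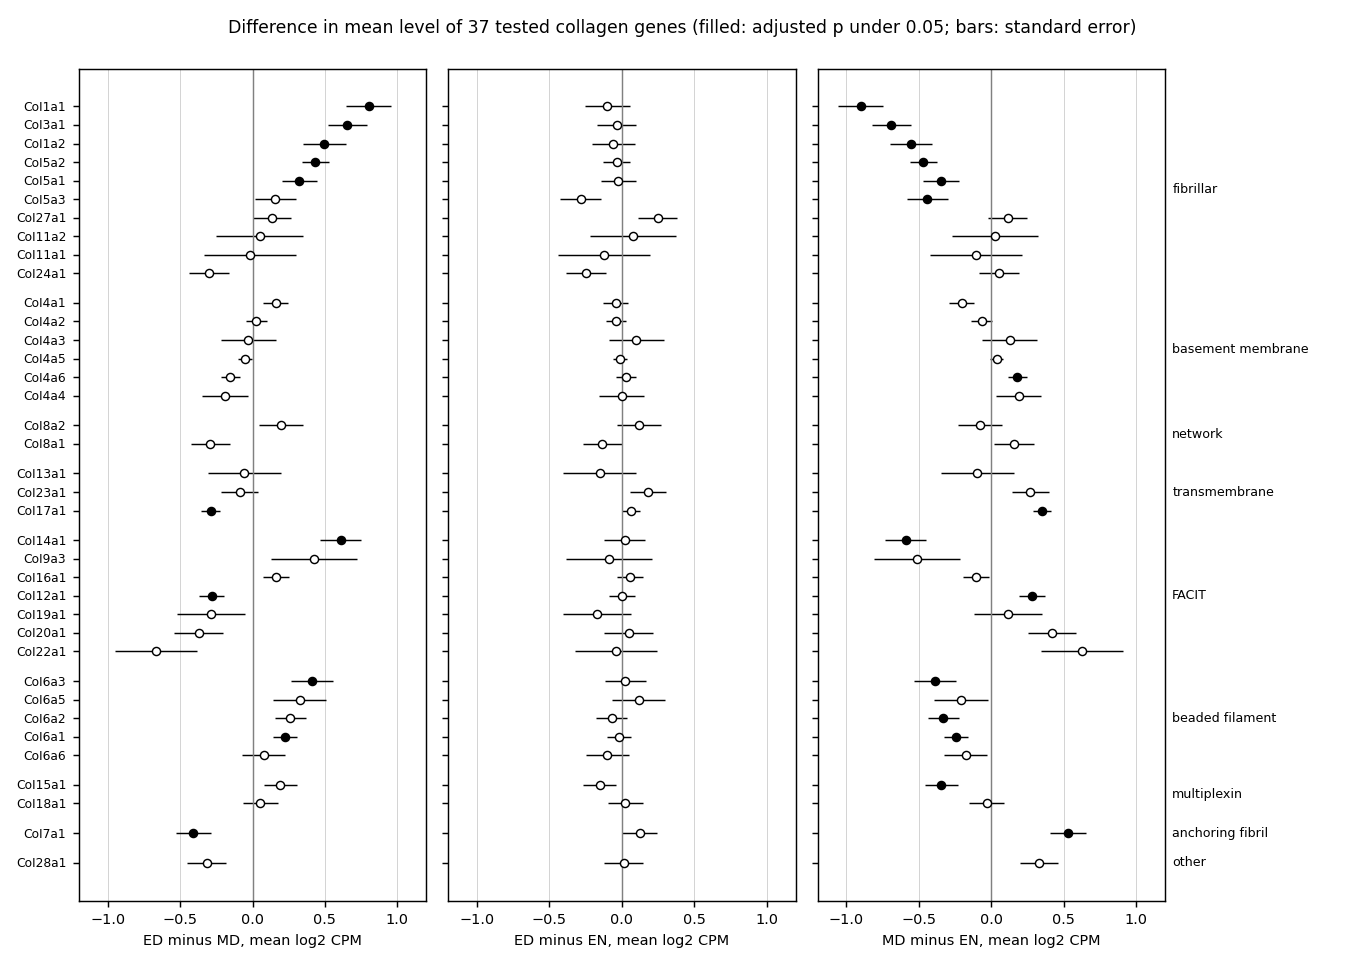
Difference in mean log2 CPM (x axis) of the 37 tested collagens for ED minus MD, ED minus EN and MD minus EN, by class, with the standard error as a bar and filled dots where the adjusted p is under 0.05. The filled fibrillar and beaded filament chains lie right of 0 in ED minus MD and left of 0 in MD minus EN, Col17a1 and Col7a1 lie on the opposite sides, and ED minus EN has no filled dot.

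Type VI collagen forms beaded filaments around fibroblasts, fat cells and muscle fibres. All 5 tested type VI chains had a positive ED minus MD difference and a negative MD minus EN difference (medians 0.26 and -0.24). In ED against MD, 2 were called higher and 0 lower. In MD against EN, 3 were called lower and 0 higher.

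Col6a3, the long chain of type VI, was at 515, 686 and 808 CPM in ED pools, 379, 483 and 735 CPM in MD pools and 489, 753 and 807 CPM in EN pools. The MD pools lay between 379 and 590 CPM at all times but ZT20. The difference was 0.41 ± 0.143 for ED minus MD (adjusted p = 0.0268) and -0.39 ± 0.143 for MD minus EN (adjusted p = 0.0261).

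Col6a1 was at 352, 439 and 538 CPM in ED pools, 296, 366 and 460 CPM in MD pools and 361, 466 and 535 CPM in EN pools. Its difference was 0.22 ± 0.0829 for ED minus MD (adjusted p = 0.0489) and -0.24 ± 0.0829 for MD minus EN (adjusted p = 0.0255). Col6a2, which neighbours it on chromosome 10, was at 292, 367 and 459 CPM in ED pools, 234, 305 and 387 CPM in MD pools and 288, 426 and 490 CPM in EN pools. It was called in MD minus EN (-0.33 ± 0.106, adjusted p = 0.0121), and its ED minus MD difference of 0.26 ± 0.106 had an adjusted p of 0.059. The ranges of both genes overlapped between the groups, and the Col6a1 call in ED against MD held in only 7 of the 24 fits that left out 1 pool. Col6a5 and Col6a6, at 0.587 and 1.8 RPKM, were not called in either comparison.

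The FACIT class split. Col14a1, which binds the surface of type I fibrils in the dermis, was at 89.6, 137 and 171 CPM in ED pools, 65.7, 82.6 and 118 CPM in MD pools and 103, 133 and 160 CPM in EN pools. It was lower in MD at 8 of 8 times in both comparisons (ED minus MD 0.61 ± 0.142, adjusted p = 0.00178; MD minus EN -0.59 ± 0.142, adjusted p = 0.00155). Col12a1, a related fibril-binding chain of loaded connective tissue, had the opposite sign.

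Col12a1 was at 72.4, 107 and 146 CPM in ED pools, 108, 134 and 145 CPM in MD pools and 91.4, 108 and 127 CPM in EN pools. The ED minus MD difference was -0.28 ± 0.0886 (adjusted p = 0.018) and MD minus EN was 0.28 ± 0.0886 (adjusted p = 0.0129). Its ED pools ranged on both sides of the MD pools. On log2 RPKM the differences were -0.057 (adjusted p = 0.702, limma) and 0.0091 (adjusted p = 0.956), and neither was called. Col16a1, the most abundant FACIT gene and a minor partner of fibrils, was not called by the counts. It was at 188, 212 and 270 CPM in ED pools, 167, 201 and 218 CPM in MD pools and 178, 217 and 252 CPM in EN pools. On log2 RPKM limma called it in ED minus MD (0.35, adjusted p = 0.00692) and in MD minus EN (-0.30, adjusted p = 0.0151). The other tested FACIT genes, Col9a3, Col19a1, Col20a1 and Col22a1, were at 0.219 to 2.54 RPKM and were not called on either scale.

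Both collagens of the junction between epidermis and dermis, Col17a1 and Col7a1, were higher in MD than in ED and EN by the counts. On log2 RPKM both kept their sign but lost the call in ED against MD (Col17a1 -0.16, adjusted p = 0.0868; Col7a1 -0.14, adjusted p = 0.193; limma). Col17a1 was at 1054, 1207 and 1463 CPM in ED pools, 1411, 1506 and 1666 CPM in MD pools and 1001, 1141 and 1356 CPM in EN pools. Every MD pool was above every EN pool, and only the ED pool of ZT16 reached into the MD range. The difference was -0.29 ± 0.0646 for ED minus MD (0.819-fold, adjusted p = 0.00802) and 0.35 ± 0.0646 for MD minus EN (1.28-fold, adjusted p = 0.00134).

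Col7a1 encodes the anchoring fibrils that tie the epidermal basement membrane to the dermis and is secreted by keratinocytes and fibroblasts. It was at 105, 127 and 181 CPM in ED pools, 143, 171 and 207 CPM in MD pools and 96.5, 123 and 141 CPM in EN pools. Its MD pools were all above its EN pools, and the ED pools of ZT16 and ZT28 lay within the MD range. The difference was -0.41 ± 0.123 for ED minus MD (0.754-fold, adjusted p = 0.0143) and 0.53 ± 0.123 for MD minus EN (1.44-fold, adjusted p = 0.00129).

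Set against each other within a pool, Col1a1 had 12.8 to 18.9 times the reads of Col17a1 in ED, 4.75 to 10 times in MD and 9.71 to 29 times in EN. The ranges of ED and MD did not overlap, and those of MD and EN met at their edges. The ratio of Col7a1 to Col17a1 spanned 0.0873 to 0.138 over all 24 pools. The other tested transmembrane collagens were not called: Col23a1, found in skin and other epithelia, was at 24.3, 29.2 and 41.9 CPM in ED pools, 20.8, 32 and 42.7 CPM in MD pools and 20.3, 28 and 32.6 CPM in EN pools. Col13a1, known from the neuromuscular junction, averaged 0.854 RPKM.

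**Figure D3:**
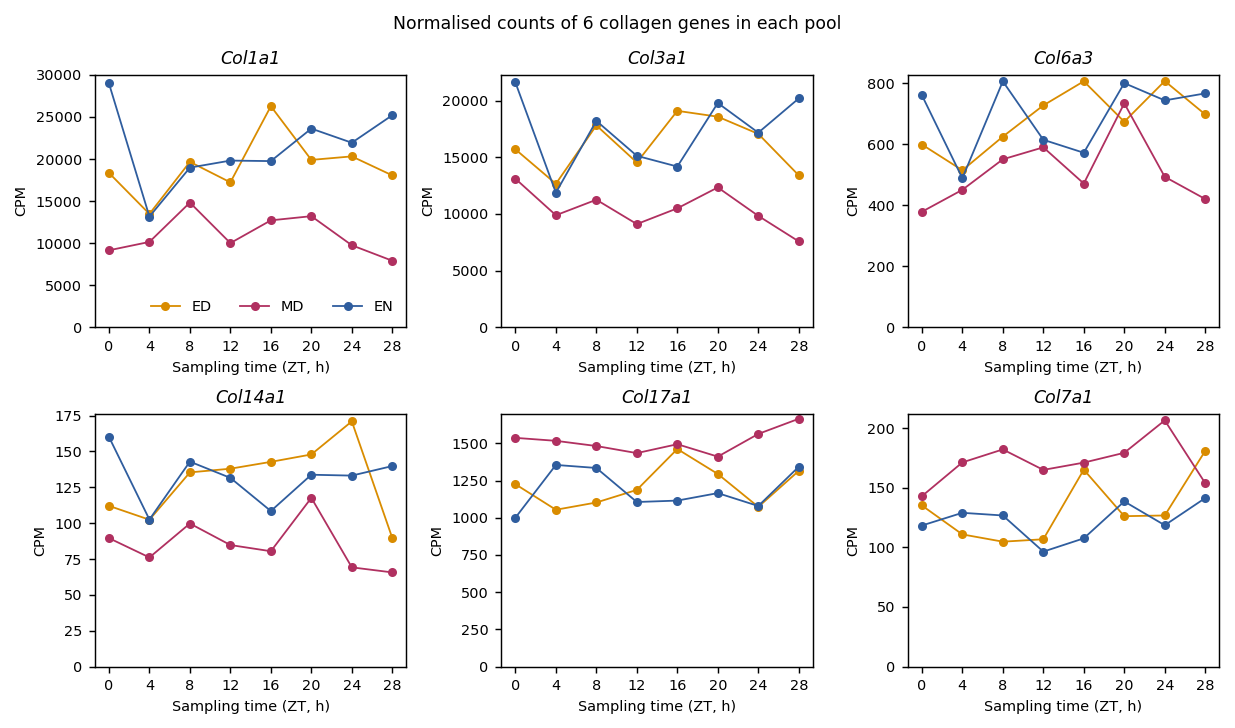
CPM (y axis, from 0) of 6 collagen genes in each of the 24 pools by sampling time (x axis, ZT in hours), with 1 line per feeding group. The MD line is the lowest for Col1a1, Col3a1 and Col14a1 at every time and the highest for Col17a1 at every time, and the lines of ED and EN cross.

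Of the 6 basement membrane chains, 0 were called in ED against MD and 1 in MD against EN by the counts. On log2 RPKM limma called Col4a1 (ED minus MD 0.37, MD minus EN -0.39) and Col4a2 (0.24 and -0.29) in both comparisons, and Col4a5 in MD against EN (-0.15). By counts, Col4a1 was at 396, 557 and 677 CPM in ED pools, 366, 451 and 559 CPM in MD pools and 434, 543 and 617 CPM in EN pools (ED minus MD 0.16 ± 0.0863, adjusted p = 0.161; MD minus EN -0.20 ± 0.0863, adjusted p = 0.0759). Its partner Col4a2, which starts head to head with it on chromosome 8, was at 237, 310 and 356 CPM in ED pools, 240, 272 and 336 CPM in MD pools and 264, 304 and 344 CPM in EN pools. The chains of this pair, which form the common type IV trimer, kept a ratio of 1.52 to 2.00 in all 24 pools, and the ratio's standard deviation was 0.10 on the log2 scale, against 0.25 for Col4a1 alone.

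The called chain was Col4a6, which pairs with Col4a5 in the epidermal basement membrane. It was at 34.4, 40.2 and 51.1 CPM in ED pools, 39.7, 46.8 and 55.4 CPM in MD pools and 36.2, 41.8 and 51.5 CPM in EN pools (MD minus EN 0.18 ± 0.0668, adjusted p = 0.0459). Its groups overlapped, and the call held in 11 of the 24 fits that left out 1 pool. Its sign turned to -0.01 on the log2 RPKM scale, where it was not called. Col4a5, with 43.7 to 61.7 CPM over all pools, and Col4a3 and Col4a4, chains of the glomerular basement membrane, were not called.

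Network collagens were scarce and were called in 0 of 2 cases in each comparison. Col8a2, a chain of the lattices beneath endothelia, was at 18, 20.4 and 24.6 CPM in ED pools, 11.4, 18.9 and 28 CPM in MD pools and 14.3, 20.7 and 25.6 CPM in EN pools. Col8a1, its partner, was at 3.62, 6.23 and 8.89 CPM in ED pools, 6.35, 8.14 and 11.6 CPM in MD pools and 5.67, 7.6 and 8.74 CPM in EN pools. Both genes overlapped between all groups.

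Of the multiplexins, which carry endostatin or a like fragment at their end, Col15a1 was called in MD minus EN (-0.34 ± 0.114, adjusted p = 0.0125). It was at 207, 251 and 288 CPM in ED pools, 143, 215 and 277 CPM in MD pools and 198, 303 and 369 CPM in EN pools. Col18a1 was at 111, 131 and 172 CPM in ED pools, 101, 129 and 157 CPM in MD pools and 108, 142 and 176 CPM in EN pools and was not called. Col28a1, a chain of no larger class, was at 5.27, 8.14 and 10.1 CPM in ED pools, 7.77, 8.88 and 13.9 CPM in MD pools and 5.93, 7.39 and 9.77 CPM in EN pools and was not called.

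The counts of called members depended on single pools. Without the MD pool of ZT16, 6 members were called in ED against MD and 7 in MD against EN, and without the ED pool of ZT8, 7 were called in ED against MD. The share of all genes called in those fits is not given here, so the drops cannot be read as particular to collagens. Col1a1, Col3a1, Col5a2, Col14a1 and Col17a1 kept their call in both comparisons in all 24 fits that left out 1 pool. The labels also give each library a code from L1 to L8 whose meaning is not stated, and the code is nearly tied to the feeding group: MD and EN share no code. By this layout, group and code cannot be told apart for most pools. With the code as a term in the fit, 0 members and 0 of 15719 genes were called in either comparison (edgeR). That fit leaves few pools to compare the groups, so its lack of calls does not show what the code contributes. The code L3 alone holds ED and MD pools, and Col1a1 was there at 18354 CPM in the ED pool (ZT0) and 9749 and 7906 CPM in the MD pools (ZT24 and ZT28). The ED pool lay on the called side of both MD pools for all 11 members called and for 71% of all genes called, and since these pools were part of the fit this is a description and no separate test.

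The split between higher and lower calls also moved with the scale. On log2 RPKM with a pseudocount of 0.1, limma called 14 members higher and 0 lower in ED against MD, where 20.6% of all genes were called, 10.3% in each direction. In MD against EN it called 2 higher and 13 lower, where 23.1% of all genes were called (11.7% higher and 11.4% lower). Col1a1 was not called on that scale, where its values are capped as described above. Col1a2 was called there in ED against MD (0.29, adjusted p = 0.0445, limma) but not in MD against EN (-0.27, adjusted p = 0.0574). With counts scaled by library totals alone, 7 were higher and 3 lower in ED against MD (22.0% of all genes, 10.4% higher and 11.6% lower), and 6 were higher and 10 lower in MD against EN (31.4% of all genes, 18.8% higher and 12.6% lower).

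Intron reads, which come mostly from unspliced RNA, were counted in separate rows and could be tested for 38 members. In ED against MD, 3 members were higher and 4 lower in ED, where 6.99% of all 14585 genes were higher and 8.49% lower (15.5% in all). Of the 11 members called on exons, 11 had the same sign on introns and 5 were called there too: Col1a1, Col1a2, Col3a1, Col17a1 and Col7a1. In MD against EN, 2 were higher and 4 lower in MD by intron reads, where 14.7% of all genes differed (8.10% higher and 6.61% lower). These 6 were all among the 15 called on exons, and 14 of the 15 had the same sign.

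Genes that make, process and bind collagen were taken from lists of known function. Among all genes, 23.0% differed in ED against MD (11.8% higher and 11.2% lower in ED). In MD against EN, 30.2% of all genes differed (14.4% higher and 15.9% lower in MD). Counts within these short lists are a description beside those shares. In the list of collagen modification and folding (18 tested), 10 were higher and 1 lower in ED than in MD, and 0 were higher and 10 lower in MD than in EN, with medians of 0.27 and -0.32. The named genes of these lists are among those with the smallest p-values in 1 of the comparisons, and Glt25d2 and Tgm2 were singled out after their values were seen. Plod1, a lysyl hydroxylase, differed by 0.44 ± 0.087 for ED minus MD (adjusted p = 0.000666) and by -0.55 ± 0.087 for MD minus EN (adjusted p = 6.95e-05). Serpinh1, the collagen chaperone HSP47, differed by 0.61 and -0.71. Ppib, a prolyl isomerase, differed by 0.38 and -0.58. The member that was higher in MD than in ED was Glt25d2 (Colgalt2), a collagen galactosyltransferase, at -0.53 ± 0.13 (adjusted p = 0.013).

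Among genes of procollagen processing and cross-linking (13 tested), 4 were higher and 1 lower in ED than in MD, and 0 were higher and 5 lower in MD than in EN. The shares of all genes called were 23.0% in ED against MD and 30.2% in MD against EN. Pcolce, which speeds the removal of the C-terminal propeptide, differed by 0.69 ± 0.13 for ED minus MD (adjusted p = 0.000262) and by -0.83 ± 0.13 for MD minus EN (adjusted p = 4.06e-05). The member higher in MD than in ED was Tgm2, a transglutaminase (-0.39 ± 0.13, adjusted p = 0.0213). Fibril-associated proteoglycans and glycoproteins (14 tested) split, with 2 higher and 6 lower in ED than in MD and 5 higher and 4 lower in MD than in EN. Lum, a small proteoglycan of fibrils, was 0.72 ± 0.11 higher in ED than in MD (adjusted p = 5.97e-05), and Thbs2, a matricellular regulator of fibrils, differed by -0.54 ± 0.093 (adjusted p = 0.000275).

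Of the collagen-degrading enzymes and their inhibitors (12 tested), 4 were higher and 0 lower in ED than in MD, and 1 was higher and 4 lower in MD than in EN. Mmp3, a matrix metalloproteinase, differed by 0.96 ± 0.19 for ED minus MD and -1.2 ± 0.19 for MD minus EN, and Ctsk, a lysosomal protease that cuts collagen, by 0.61 ± 0.13 and -0.81 ± 0.13. Collagen receptors (9 tested) had 0 higher and 2 lower in ED than in MD and 4 higher and 0 lower in MD than in EN, among them Itga11, a fibroblast integrin for type I collagen (-0.37 ± 0.087 for ED minus MD). Of all genes, 23.0% differed in ED against MD and 30.2% in MD against EN. The number of receptors called in ED against MD was near that share.

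Basement membrane partners (17 tested) had 1 higher and 9 lower in ED than in MD, and 8 higher and 1 lower in MD than in EN, with medians of -0.18 and 0.19. For all genes, 11.8% were higher and 11.2% lower in ED than in MD. In MD against EN, 14.4% of all genes were higher and 15.9% lower in MD. Lama3, a chain of the epidermal laminin, differed by -0.32 ± 0.069 and 0.36 ± 0.069, and Lamc3, another laminin chain, by -0.57 ± 0.10 and 0.62 ± 0.10. Of genes of TGF-beta signalling to matrix (15 tested), 0 were higher and 5 lower in ED than in MD, and 5 were higher and 1 lower in MD than in EN. Smad3, which carries the signal to the nucleus, differed by -0.34 ± 0.099 for ED minus MD (adjusted p = 0.0111).

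**Figure D4:**
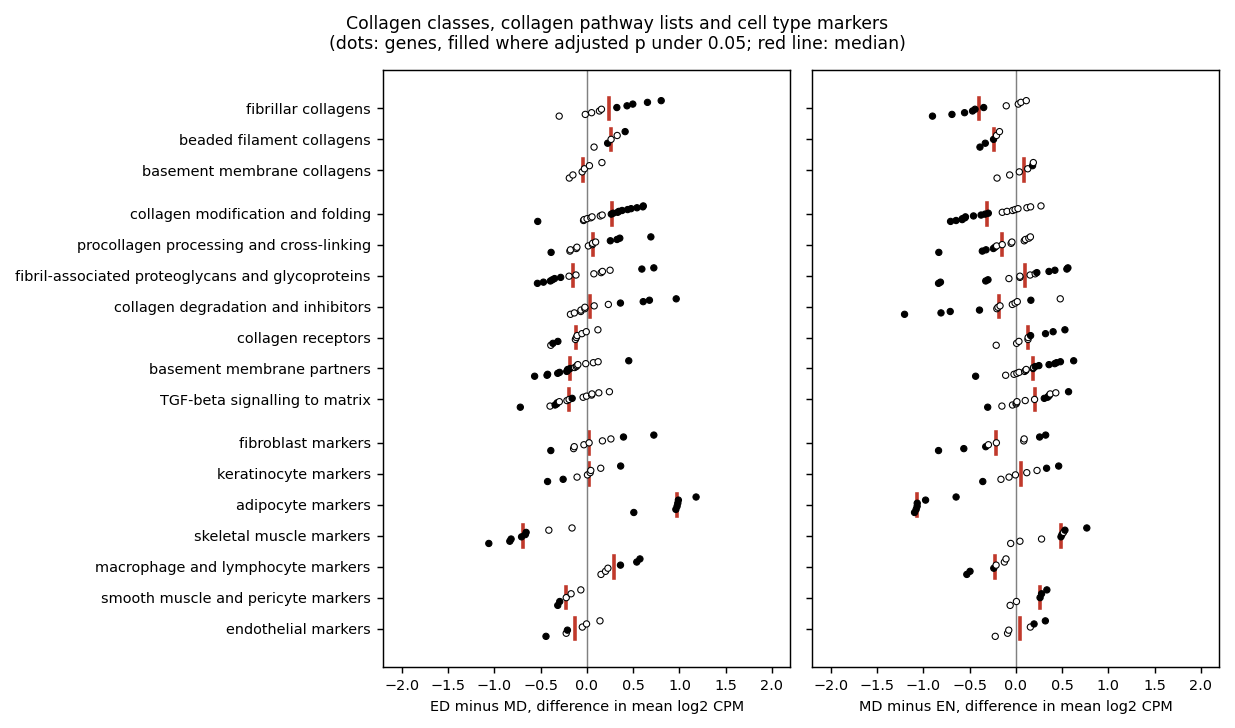
Differences in mean log2 CPM (x axis) for ED minus MD and MD minus EN in the fibrillar, beaded filament and basement membrane collagens, 7 lists of collagen biology and 7 lists of cell type markers; each dot is a gene, filled where its adjusted p is under 0.05, and the red line is the median. Collagen modification, with medians of 0.27 and -0.32, lies on the side of the fibrillar collagens, and basement membrane partners, with -0.18 and 0.19, lie opposite.

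Markers of other cells of the skin moved with the same comparisons. Among all genes, 11.8% were higher and 11.2% lower in ED than in MD. In MD against EN, 14.4% of all genes were higher and 15.9% lower in MD. In bulk tissue, fewer cells of a type and less RNA per cell cannot be told apart. All 6 adipocyte markers were higher in ED than in MD and lower in MD than in EN (medians 0.98 and -1.07), and their summed level was 1158 to 1686 CPM in ED, 577 to 979 CPM in MD and 1134 to 1977 CPM in EN pools, so that MD overlapped neither group. Of 8 skeletal muscle markers, 0 were higher and 6 lower in ED than in MD and 4 were higher and 0 lower in MD than in EN, with summed levels of 8683 to 24460 CPM in ED, 14241 to 25471 CPM in MD and 10746 to 24514 CPM in EN pools. Of 6 macrophage and lymphocyte markers, 3 were higher in ED than in MD and 3 lower in MD than in EN, with summed levels of 376 to 681 CPM in ED, 308 to 548 CPM in MD and 486 to 673 CPM in EN pools. The part of these cells in the collagen differences was not tested.

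Markers of fibroblasts and keratinocytes had calls in both directions. Of 9 fibroblast markers, 2 were higher and 1 lower in ED than in MD, and 2 were higher and 3 lower in MD than in EN, with medians of 0.02 and -0.21. Their summed level was 2382 to 4083 CPM in ED, 2526 to 3821 CPM in MD and 3253 to 4245 CPM in EN pools. Of 8 keratinocyte markers, 1 was higher and 2 lower in ED than in MD, and 2 were higher and 1 lower in MD than in EN (medians 0.02 and 0.06). Their summed level was 7157 to 9193 CPM in ED, 7477 to 9376 CPM in MD and 6882 to 9410 CPM in EN pools. Smooth muscle and pericyte markers had 0 higher and 2 lower of 5 in ED against MD, endothelial markers 0 higher and 2 lower of 6, and Schwann cell markers 0 higher and 1 lower of 5. In MD against EN, these lists had 3, 2 and 0 higher in MD, in that order, and 0 lower. The shares of all genes called were 23.0% in ED against MD and 30.2% in MD against EN. Of the chondrocyte markers, 2 of 5 could be tested and 0 were called. No marker of these lists was at 0 in all pools.

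The second question is whether collagen levels followed the time of day or the time of food. Col5a3 was the one member with a called daily rhythm, and its rhythm in EN passed the test (1 of 37 members, where 1.06% of all genes passed). In ED, 0 of 37 passed (0.719% of all genes), as did 0 of 37 in MD (0.942%), by edgeR's quasi-likelihood test. At an unadjusted p under 0.05 there were 9 members for ED (24.3%, against 14.9% of all genes), 11 for MD (29.7% against 15.7%) and 6 for EN (16.2% against 10.8%). DESeq2 called 3 for ED, 2 for MD and 2 for EN, and of all genes 2.57% for ED, 3.14% for MD and 2.21% for EN.

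Col5a3 was at 51.2, 91.1 and 139 CPM in ED pools (lowest, median and highest), 48.7, 64 and 118 CPM in MD pools and 62.8, 112 and 152 CPM in EN pools. Its lowest pools were those of ZT12 in ED, ZT8 in MD and ZT12 in EN, and its highest those of ZT28 in ED, ZT20 in MD and ZT0 in EN. From mean to peak, the fitted curve rose by 0.51 ± 0.134 in ED (adjusted p = 0.106), 0.54 ± 0.143 in MD (adjusted p = 0.0652) and 0.64 ± 0.134 in EN (adjusted p = 0.0197, edgeR) on the log2 scale.

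The fitted Col5a3 peak was at ZT 3.3 ± 1.08 for the ED pools, at ZT 19.1 ± 0.95 for the MD pools and at ZT 0.769 ± 0.847 for the EN pools (hours, with the standard error). The rhythm differed between ED and MD (1 of 37 members, where 0.350% of all genes passed; adjusted p = 0.0338, edgeR), with the peak 8.25 ± 1.44 h later in ED. It was not called as different between ED and EN (0 of 37 members, 0.401% of all genes; peak 2.53 ± 1.37 h later in ED, adjusted p = 0.519; 5 members, 13.5% against 11.6% of all genes, at an unadjusted p under 0.05, and 0 against 1.80% by DESeq2) or between MD and EN (0 of 37 members, 0.350% of all genes; MD minus EN peak -5.72 ± 1.27 h, adjusted p = 0.0806; 7 members, 18.9% against 12.7% of all genes, at an unadjusted p under 0.05, and 1 against 1.61% by DESeq2). Counted from the opening of food, the peak came after 3.3 h in the ED group, 14.1 h in the MD group and 12.8 h in the EN group. Counted from the peak of Arntl, the gene of the clock activator BMAL1, it came after 2.45 h in the ED group, 1.56 h in the MD group and 3.19 h in the EN group.

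Intron reads of Col5a3 were at 21, 47.2 and 79.1 CPM in ED pools, 21.4, 34.9 and 71.9 CPM in MD pools and 20.8, 51.7 and 86.1 CPM in EN pools. They had a called rhythm in EN (1 of 38 members and 0.898% of all genes, adjusted p = 0.00294) and in MD (2 of 38 members and 0.836%, adjusted p = 0.0342), and in ED the adjusted p was 0.0644. Their rhythm differed between ED and MD (1 of 38 and 0.453%, adjusted p = 0.00405) and between MD and EN (1 of 38 and 0.274%, adjusted p = 0.0338). Between ED and EN, 0 of 38 members differed in intron rhythm (0.151% of all genes). Fitted intron peaks of Col5a3 were ZT 2.28 ± 0.913 for the ED pools, ZT 16.8 ± 0.881 for the MD pools and ZT 22.2 ± 0.598 for the EN pools.

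The exon rhythm of Col5a3 in EN lost its call without the EN pool of ZT0 or of ZT12, ZT16 or ZT24 (0 of 37 members in each case). The difference between ED and MD lost its call without any of 10 single pools: ED ZT4, ZT8, ZT20 or ZT28, MD ZT4, ZT8, ZT12, ZT20 or ZT28, or EN ZT24. Without ED ZT24 and EN ZT0, the pools with growing-hair markers, 0 members were called in either test. The share of all genes called in those fits is not given here, so the losses cannot be read as particular to Col5a3.

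**Figure D5:**
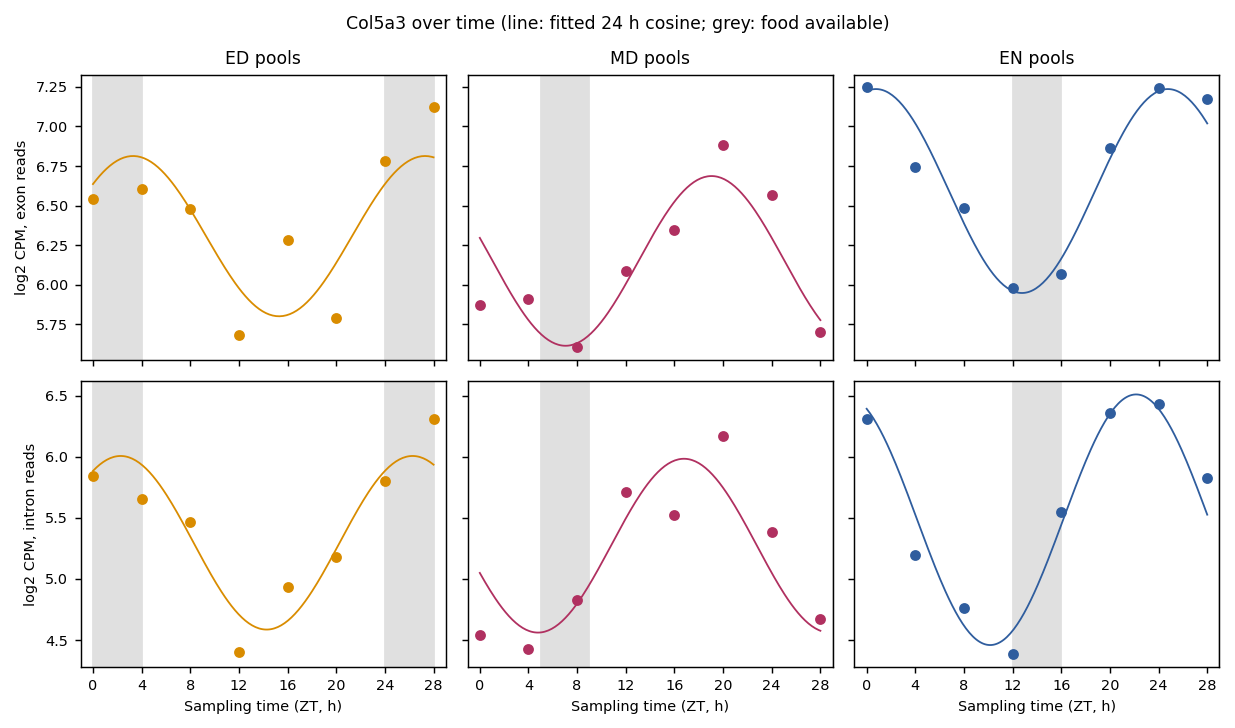
Col5a3 in log2 CPM (y axis) by sampling time (x axis, ZT in hours) from exon reads (top) and intron reads (bottom) in ED, MD and EN pools; dots are pools, lines the fitted 24 h cosine and grey bands the hours with food. The fitted exon peak is ZT 3.3 for the ED pools, ZT 19.1 for the MD pools and ZT 0.769 for the EN pools.

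A rhythm shared by the 3 groups was fitted once in ZT and once in hours since food was opened. None of the 37 members was called in ZT (0 of 37, where 0.668% of all genes were) or in hours since food (0 of 37, where 1.29% were) by edgeR. At an unadjusted p under 0.05 there were 10 members in ZT (27%, against 14.7% of all genes), led by Col6a6 (adjusted p = 0.0923), and 8 in hours since food (21.6% against 15.6%), led by Col15a1 (adjusted p = 0.143). DESeq2 called 3 in ZT (Col23a1, Col4a1 and Col6a6; 2.11% of all genes) and 0 in hours since food (3.44% of all genes). On intron rows 0 of 38 members were called in ZT (0.370% of all genes) or in hours since food (0.322%). The fitted peaks of the shared ZT curve lay between ZT16 and ZT24 for 27 of the 37 members (73%) and for 35.1% of all genes, a window chosen after the peaks were seen. The members share pools, and the amplitude of these curves was small, with a median of 0.15 over the members and 0.09 over all genes on the log2 scale.

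In the list of collagen modification and folding, 4 of 18 genes had a called rhythm shared in hours since food: Serpinh1 (adjusted p = 0.0022, edgeR), P4ha2, Fkbp10 and Fkbp14. The share of all genes called in that test was 1.29%. P4ha2 is a prolyl hydroxylase and the FKBP genes encode prolyl isomerases of the endoplasmic reticulum. Thbs1 and Thbs2 of the fibril-associated list were called too. The other 5 lists of collagen biology had 0 called in that test.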

How the data were processed

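RNA of whole back skin was sequenced after preparation with the Illumina TruSeq Stranded Total RNA kit, per the labels. The authors deposited raw counts for each gene model as whole numbers, and exon, intron and antisense reads have a row each, per the file headers. The deposited RPKM table was made by the authors with cqn, per its file name, and its largest values are the same in every library. The submitters' processing notes name TopHat2, SAMtools, HOMER and the build mm10. No source used here names the counting program.

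From the exon counts, 15719 genes passed filterByExpr by group (minimum count 10, minimum total 15) and were scaled by TMM. edgeR 4.0.16 (R 4.3.3) fitted 1 model to the 24 libraries with a mean, a cosine and a sine (24 h) per group, which leaves 15 residual degrees of freedom; the shared rhythms had 19. Log2 differences, amplitudes and peaks, each with a standard error, came from an ordinary linear fit of the same model to log2 CPM (prior count 2). Adjusted p-values are Benjamini-Hochberg over all genes, with a threshold of 0.05. The scripts were tested on simulated data. Alternatives used DESeq2 1.42.0, limma 3.58.1 on log2(RPKM + 0.1), other scalings, no filter, fewer pools, intron rows, the sampling time as a block and the L code as a term. Log2 differences quoted from alternative fits are those fitted by edgeR or limma.

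The collagens, their classes and the gene lists were chosen with earlier results of these data known. Per-pool values are given for the most abundant pair of each class and for each member called in any test, and at most 4 members of any other list are named. Sequences and positions use GRCm38.p6, which shares its coordinates with mm10. How reads matching several places were counted is not stated. Precision is limited by 1 pool per group and time.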

Additional observations from a re-analysis of the deposited data

Results flagged for a closer look

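Dixon's test was applied to the log2 CPM of each of the 37 members in each group of 8 pools, 111 sets in all, of which chance marks about 1 in 20 (5.55 sets). It marked 4 sets, in each of which 1 pool stood apart from the other 7. Col4a5 was highest in the MD pool of ZT16, with a gap of 0.693 of the range. Col23a1 was highest in the ED pool of ZT28 (0.560), Col12a1 was lowest in the MD pool of ZT0 (0.535) and Col22a1 was lowest in the ED pool of ZT20 (0.562). The MD pool of ZT16 is also the one whose removal lowers the number of collagens called most. The rhythm of Col5a3 differed between ED and MD (adjusted p = 0.0338, edgeR), with the peak 8.25 ± 1.44 h later in ED.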

How the results depend on the processing

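With 1 pool left out at a time, the number of collagens called ran from 6 to 14 for ED against MD, 0 to 0 for ED against EN and 7 to 18 for MD against EN. It ran from 0 to 2 for a rhythm in ED, 0 to 1 in MD and 0 to 1 in EN, and from 0 to 1, 0 to 0 and 0 to 1 for a different rhythm in ED against MD, ED against EN and MD against EN. The ED rhythm count of 2 came without ED ZT16, the MD count of 1 without ED ZT16, ED ZT28 or MD ZT0, and the MD against EN count of 1 without ED ZT16. Leaving out single pools and scaling by library totals were added after seeing the data. The counts in this section stand without the share of all genes called in the same fits, so they do not set collagens apart from other genes.

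For mean levels, intron rows gave 7 calls in ED against MD and 6 in MD against EN, the L code as a term 0 and 0, and leaving out the second day 8 and 9. Rhythm calls in ED numbered 1 without a filter, 3 with DESeq2 and 1 with limma on RPKM. In MD they numbered 1 without a filter, 2 with DESeq2, 2 with limma on RPKM, 2 on intron rows and 1 with total count scaling. In EN they numbered 2 without a filter, 2 with DESeq2, 2 with total count scaling, and 0 without the second day or without the pools ED ZT24 and EN ZT0. A different rhythm in ED against MD was called for 0 members without the second day or without that pair of pools. In MD against EN it was called for 1 without a filter, with DESeq2 or on intron rows. A rhythm shared in ZT was called for 3 with DESeq2, 2 with limma on RPKM and 1 with total count scaling. The cause was not tested. All other settings that were fitted kept each count within 1.5 times of the value reported.

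Col4a6 changed sign in MD minus EN to -0.0089 on log2 RPKM, -0.042 on intron rows and -0.34 with the L code as a term. Of 949 comparisons of a single called member with another setting, 793 kept the call, 153 lost it and these 3 reversed. The lost calls of mean level kept their direction, and the lost rhythm calls of Col5a3 were not checked for direction. With the sampling time as a replicate block, 13 collagens were called in ED against MD, 0 in ED against EN and 18 in MD against EN, and the different rhythm of Col5a3 in ED against MD was kept (1 call). The rhythm within 1 group was not tested with that block. Deviations of same-time pools from their group means had correlations of -0.15 to 0.24 across genes. The daily curve of each group was not removed first, so these values cannot show whether the times pair the pools. With 1 pool per group and time, low genes such as Col11a1 and Col22a1, whose differences have standard errors near 0.3, could hide differences of the size seen in Col6a1.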
